A study of Mus musculus with 4 samples.

Results

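The genes Cdx1, Cdx2, Hnf4a, Hnf4g, Isx, Gata4, Gata5 and Gata6 encode 8 transcription factors of intestinal identity. They were taken as every probe set whose only gene symbol in the platform annotation is 1 of these 8 names, which gave 18 probe sets out of 45101 on the array and 8 genes out of 18193. The study compared 2 groups of mouse embryos at E15.5, when the gut epithelium is forming villi. The Yy1_KO group had the genotype Yy1f/f; Shh-Cre, in which a recombinase driven from the Shh gene is active in gut endoderm and removes floxed Yy1. The WT group had the genotype YY1f/f, that is the same floxed alleles with no Cre, and came from the same litters. Each group had 2 samples, each sample pooled up to 2 embryos, and both groups were cells positive for Epcam, an epithelial adhesion protein, drawn by magnets from gut that reached from stomach to caecum. No sample carried Cre without the floxed alleles, so effects of the Cre allele and of Yy1 loss cannot be told apart.

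CDX factors are homeodomain proteins of the hindgut, and Cdx2 is the factor that separates intestine from stomach during development, with Cdx1 as its close relative. HNF4A and HNF4G are nuclear receptors that bind the same DNA element as dimers and drive genes of lipid transport and absorption in enterocytes. GATA4, GATA5 and GATA6 are zinc finger proteins of endoderm, and GATA4 sets the proximal, jejunal pattern of the small intestine. ISX is a homeodomain protein restricted to the intestine, acts downstream of CDX2, and is known in mouse to repress genes of carotenoid uptake and cleavage.

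Promoter windows are shown because all 8 genes moved the same way. For 4 of them, Cdx2, Hnf4a, Isx and Gata5, windows were used from the RefSeq table (GRCm38.p6, from 250 bases before to 50 bases after a start). For these genes 5 such windows were used, 2 of them for Hnf4a. The 4 windows that contain a searched motif are printed 5′ to 3′ on the strand of the gene, with motif letters in capitals. Both strands were searched for GCCAT, the core of the YY1 site, and for AAGATGG, a longer form of that site. The search also took CAAAGTC for HNF4 factors, TTTATNG for CDX factors, AGATAA for GATA factors and GTTAAT for HNF1 factors, and no match in these windows overlapped another.
Cdx2, chr5:147307200-147307499, minus strand: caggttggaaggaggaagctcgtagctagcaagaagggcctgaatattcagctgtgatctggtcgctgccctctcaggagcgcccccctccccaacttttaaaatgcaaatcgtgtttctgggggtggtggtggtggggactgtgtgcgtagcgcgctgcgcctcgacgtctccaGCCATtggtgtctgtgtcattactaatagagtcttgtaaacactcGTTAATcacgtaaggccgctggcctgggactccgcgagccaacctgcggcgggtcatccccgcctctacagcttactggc
Hnf4a, upstream start, chr2:163506607-163506906, plus strand: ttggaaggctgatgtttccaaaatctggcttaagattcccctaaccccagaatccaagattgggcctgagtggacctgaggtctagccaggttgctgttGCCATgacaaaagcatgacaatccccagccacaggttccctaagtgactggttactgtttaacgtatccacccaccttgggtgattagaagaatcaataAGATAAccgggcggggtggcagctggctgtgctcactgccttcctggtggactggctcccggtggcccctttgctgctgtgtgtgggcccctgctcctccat
Hnf4a, downstream start, chr2:163546905-163547204, plus strand: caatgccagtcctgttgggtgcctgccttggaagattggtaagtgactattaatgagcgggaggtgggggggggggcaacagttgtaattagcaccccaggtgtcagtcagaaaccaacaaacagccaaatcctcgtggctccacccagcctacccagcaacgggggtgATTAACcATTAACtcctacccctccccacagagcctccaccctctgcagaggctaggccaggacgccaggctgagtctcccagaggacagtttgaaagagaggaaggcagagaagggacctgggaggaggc
Isx, chr8:74872924-74873223, plus strand: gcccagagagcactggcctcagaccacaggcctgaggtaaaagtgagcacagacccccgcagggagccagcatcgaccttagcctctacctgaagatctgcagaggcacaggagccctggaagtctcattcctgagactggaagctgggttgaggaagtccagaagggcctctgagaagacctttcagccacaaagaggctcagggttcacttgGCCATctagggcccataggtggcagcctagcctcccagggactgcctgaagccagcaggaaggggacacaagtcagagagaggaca

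The YY1 core stood once each in the Cdx2, upstream Hnf4a and Isx windows, first base at -75, -151 and -36 from the start. This core is common, since 40.5% of all 32851 windows of that length hold it on either strand. The HNF1 letters stood once in the Cdx2 window, at -30, and as a pair of reverse matches in the downstream Hnf4a window, at -81 and -74, against 7.10% of all windows with at least 1 match. The GATA letters stood at -52 in the upstream Hnf4a window, and 11.2% of all windows hold them. The longer YY1 form, the HNF4 letters and the CDX letters were in none of the windows searched for the members. Of all windows, 6.34%, 4.44% and 10.9% hold them. The Gata5 window, which had a GC content of 69.7% against a median of 52.7% over all windows, held none of the 6. These matches are letters in a window and were not related to the expression values. Cdx1, Hnf4g, Gata4 and Gata6 have no sequence shown. Windows of the members were not taken from every chromosome, so this does not show that the RefSeq table lacks these genes.

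The values are log2 intensities that the authors made with GCRMA, a method that corrects background by probe sequence and scales arrays to each other. Between 36.1% and 36.4% of probe sets reached a log2 value of 4 on the Yy1_KO arrays, and between 35.6% and 36.2% on the WT arrays, and a probe set was tested when at least 2 of the 4 arrays reached that value. A log2 change is the Yy1_KO mean minus the WT mean, with its standard error (SE) and adjusted p from limma over 16887 tested probe sets, and the number of arrays limits its precision. Yy1 itself was lower in Yy1_KO on each of its 4 probe sets, at 23.4% to 44.7% of the WT level. Shh, the gene from which Cre is driven, was lower as well on its tested probe set (1436869_at). It was at 26.0% of the WT level (log2 change -1.95, limma adjusted p = 0.000812), and the part of the Cre allele in this fall was not tested. On the arrays with lower Yy1, markers of other cell types were higher. The summed linear intensity of 14 mesenchyme genes was 2464 to 2712 in Yy1_KO and 656 to 793 in WT, and all 10 tested genes of that list rose, such as Col6a1 (log2 change 2.54) and Dcn (at least 2.98-fold higher), though for 4 of them, Dcn included, only a rise could be tested. Over the whole array 17.9% of tested genes rose. That of 9 smooth muscle genes was 2883 to 2917 in Yy1_KO and 243 to 387 in WT, and all 7 tested rose (1 could only rise), such as Tpm2 (3.43) and Actg2 (3.43). The mesenchyme genes Twist1 and Thy1 were at the floor of all arrays. General epithelium genes summed to 9228 to 9831 in Yy1_KO and 10673 to 11240 in WT, with a median log2 change of -0.22. Of 14 tested, 4 were lower and 3 higher, near the shares of all tested genes (21.7% lower and 17.9% higher). Epcam itself fell by 0.44 (SE 0.11, limma adjusted p = 0.0287). Smaller lists moved as well. Leukocyte genes summed to 314 to 358 in Yy1_KO and 105 to 118 in WT (4 of 4 tested rose of 10 listed, 2 of which could only rise), blood globin and other erythroid genes to 915 to 1032 in Yy1_KO and 77 to 96 in WT (2 of 2 tested rose of 6 listed, 1 of which could only rise), and pancreas and liver genes to 7494 to 9000 in Yy1_KO and 4346 to 4390 in WT (6 of 8 tested rose, 2 of which could only rise, and 1 fell, of 10 listed). Those of the last list that rose were the pancreas genes Ptf1a, Cpa1, Cela1, Prss2, Ctrb1 and Ins2. Its liver genes did not rise, since Afp fell (-0.89), Ttr did not pass (0.08) and Alb was at the floor. No gene of the endothelium or neural list was tested. Of the mesothelium list 1 of 2 tested fell, where 21.7% of all tested genes were lower. At the floor on all arrays were Pecam1, Kdr, Tek, Emcn, Cldn5, Wt1, Lrrn4, Cd14, Alb and Hba-a1. The part of these shifts in the results below was not tested. In RNA of whole samples, fewer cells of a type and less RNA per cell cannot be told apart. As a sign of RNA quality, log2 signal at the 3′ end of Gapdh minus that at its 5′ end was 1.60 and 1.65 in Yy1_KO against 1.31 and 1.37 in WT, and for actin it was -0.08 and -0.07 in Yy1_KO against -0.10 and -0.13 in WT.

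All 8 factors were lower in the Yy1_KO epithelium. The lowest measured levels were those of Hnf4g and Cdx1, at 14.5% and 15.0% of the WT level on their brightest probe sets, with Cdx1 under the intensity filter in Yy1_KO. Isx, Gata5, Hnf4a and Cdx2 fell to between 38.6% and 49.7%, and Gata6 and Gata4 fell least, to 63.9% and 64.2%. The 16 tested probe sets of the 8 genes were all lower at an adjusted p under 0.05 (9 without WT replicate 2), and both Yy1_KO arrays lay below both WT arrays on all 18. Over the whole array, 20.0% of tested probe sets were lower at that threshold, 17.1% were higher (37.1% in either direction), and on 38.3% both Yy1_KO arrays lay below both WT arrays. For 3 of the 16, the Cdx1 probe set and 2 of Hnf4g, both Yy1_KO arrays were under the intensity filter, so that only a fall could be tested, and the other 13 had at least 1 array of each group at or over it. Of these, Gata5 (1450126_at) and Hnf4g (1450518_at) were just over the filter in Yy1_KO. The median log2 change over the 8 brightest probe sets was -1.23, beside -0.03 over all 8626 tested genes. The members were chosen with earlier results of these data known, so these contrasts are not independent evidence of their direction. Without the intensity filter, when a mass of probe sets at the floor enters the variance model, 1 of the 18 passed (1421983_s_at of Hnf4a), while all 18 had an unadjusted p under 0.05.

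**Figure D1:**
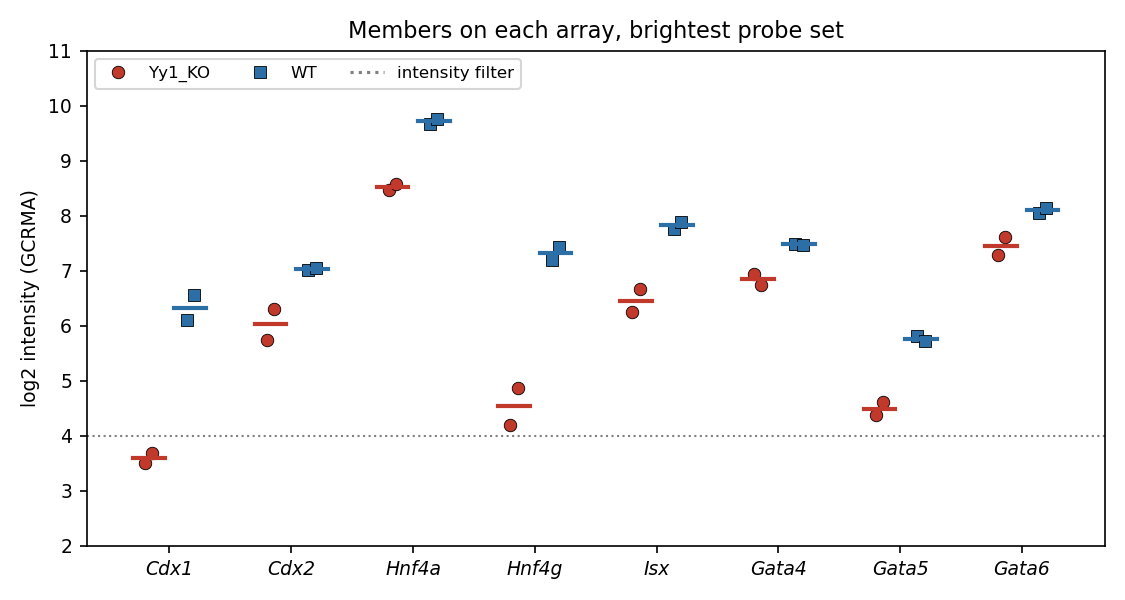
Log2 GCRMA intensity (vertical axis) of each factor's brightest probe set on the 2 Yy1_KO arrays (circles) and the 2 WT arrays (squares), with group means as bars and the intensity filter of 4 as a dotted line. Both Yy1_KO arrays lie below both WT arrays for all 8 genes, and only Cdx1 lies under the filter in Yy1_KO.

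Cdx1 was near the lower end of the arrays in Yy1_KO epithelium. Its single probe set (1449582_at) had log2 values of 3.51 and 3.68 in Yy1_KO and 6.11 and 6.55 in WT. The groups did not overlap, and the gap between them was several times the spread within either. The log2 change was -2.74 (SE 0.17, limma adjusted p = 0.000969), and since both Yy1_KO values were under the filter, the fall measured against the filter itself is at least 5.03-fold. With an offset of 16 added to the linear values, which shrinks changes of dim genes, the change was -1.78 and still passed.

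Cdx2, the factor on which intestinal rather than gastric fate depends, kept a clear signal in both groups. Its brighter probe set (1422074_at) read 5.74 and 6.31 in Yy1_KO and 7.02 and 7.05 in WT. The WT arrays were nearly the same while the Yy1_KO arrays were further apart, and the groups stayed separate. That probe set fell by 1.01 (SE 0.20, limma adjusted p = 0.0151), and the call was lost without WT replicate 1 (adjusted p = 0.107) and without WT replicate 2 (adjusted p = 0.126). The second probe set (1422075_at) read 5.71 and 5.79 in Yy1_KO and 7.10 and 7.02 in WT. With its tighter replicates it fell by 1.31 (SE 0.10, limma adjusted p = 0.00136) and passed with any 1 array left out.

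The other CDX gene on the array, Cdx4, was at the floor of all 4 arrays. Read on the same array, the difference between Cdx1 and Cdx2 was wider in Yy1_KO. Cdx1 minus Cdx2 was -2.23 and -2.63 in Yy1_KO against -0.91 and -0.50 in WT. The groups did not overlap, and the measured difference between the changes was -1.73, or -1.43 with the second Cdx2 probe set. Since Cdx1 was under the filter in Yy1_KO, its level there set at the filter gives -1.32 and -1.02. An exact 2-sided permutation test over the 4 arrays gave p = 0.333, the smallest value that 2 against 2 arrays allow, so that it cannot pass a threshold of 0.05. With the linear offset the difference was -0.93.

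Hnf4a was measured by 4 probe sets, and it fell on each of them by a different amount. The brightest (1427001_s_at) read 8.47 and 8.57 in Yy1_KO and 9.67 and 9.76 in WT. Replicates were close in both groups, and the log2 change was -1.20 (SE 0.11, limma adjusted p = 0.00174). Probe set 1421983_s_at read 6.16 and 6.09 in Yy1_KO and 7.93 and 7.90 in WT, the largest fall of the 4, by 1.80 (SE 0.10, limma adjusted p = 0.000778). The smallest change, -0.79 (SE 0.13, limma adjusted p = 0.00955), was on 1450447_at, with 6.28 and 6.58 in Yy1_KO and 7.21 and 7.23 in WT, and that call was lost without either WT array. Probe set 1427000_at lay between them with a change of -1.62 (SE 0.14, limma adjusted p = 0.00172). The 95% intervals of the largest and the smallest fall, -2.05 to -1.54 and -1.13 to -0.45, did not overlap, and which transcript or which of the 2 starts each probe set reads was not established here.

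Hnf4g, the relative that shares the binding element of Hnf4a, fell on all 3 of its probe sets, by amounts within error of the Cdx1 change on the brightest. Its brightest probe set (1450518_at) read 4.20 and 4.87 in Yy1_KO and 7.20 and 7.44 in WT. On the brightest probe sets its 2 Yy1_KO arrays differed more than those of the other factors, yet both lay far below WT. The log2 change was -2.78 (SE 0.24, limma adjusted p = 0.00158), a 6.89-fold fall. Probe set 1422182_at read 3.21 and 3.27 in Yy1_KO and 6.28 and 6.65 in WT, a change of -3.23 (SE 0.15, limma adjusted p = 0.000686). Probe set 1460127_at read 3.15 and 3.26 in Yy1_KO and 5.49 and 6.20 in WT, a change of -2.64 (SE 0.24, limma adjusted p = 0.00179). On these last probe sets both Yy1_KO arrays were under the filter, so that the falls against it are at least 5.52-fold and 3.59-fold.

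**Figure D2:**
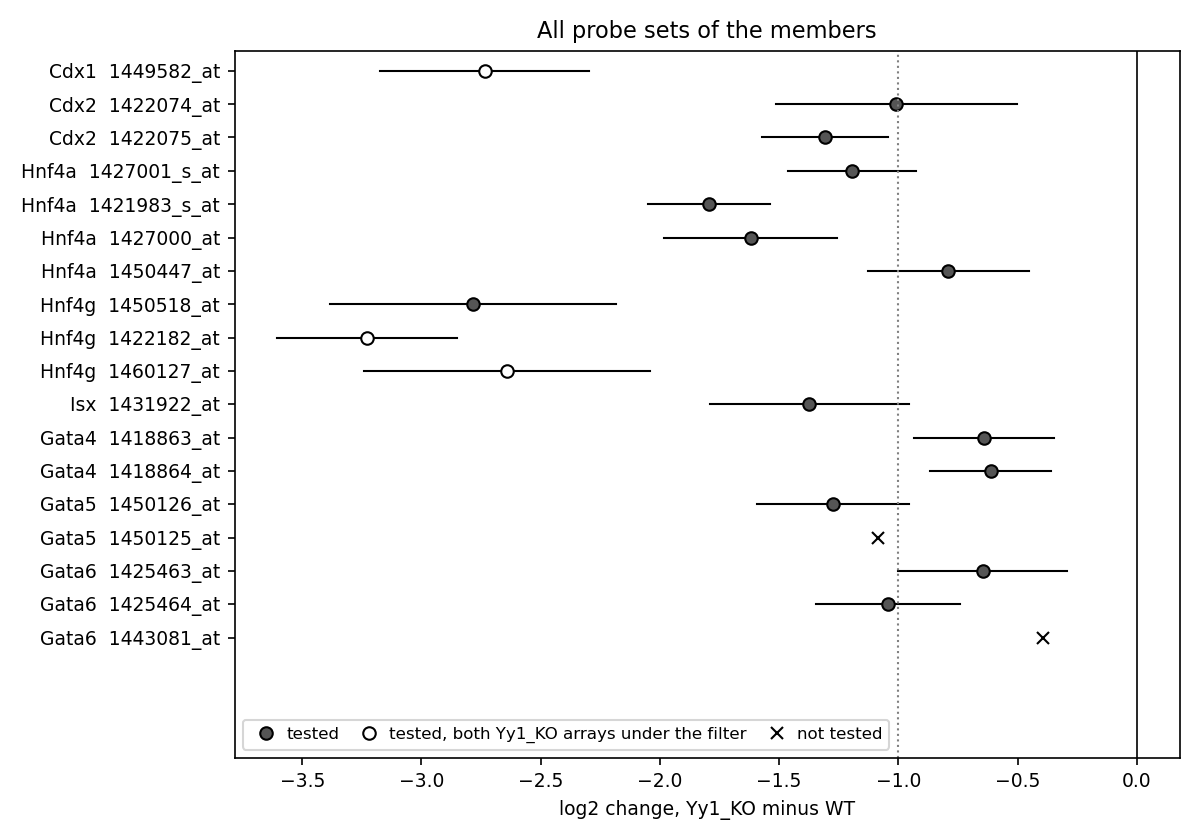
Log2 change, Yy1_KO minus WT (horizontal axis), of all 18 probe sets, with 95% intervals from limma for the 16 that were tested. Open circles have both Yy1_KO arrays under the filter, crosses were not tested, and the dotted line at -1 marks a 2-fold fall. All points lie left of 0, with Cdx1 and Hnf4g furthest.

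Within arrays, Hnf4g and Hnf4a also lay further apart in Yy1_KO. Hnf4g minus Hnf4a was -4.27 and -3.70 in Yy1_KO against -2.48 and -2.32 in WT, without overlap, a difference between the changes of -1.59. Over all 12 pairs of an Hnf4g with an Hnf4a probe set, the measured difference ran from -2.44 to -0.85. Both ends rest on Hnf4g probe sets under the filter in Yy1_KO, and with these set at the filter the range was -1.99 to -0.05. The exact permutation p was again 0.333, and with the linear offset the difference was -0.99.

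Among genes that share sites or work with HNF4, 2 of 4 tested fell and 2 did not pass, beside 21.7% of all tested genes lower, and 1 of the 2 could only fall. Ppara, the fatty acid sensing nuclear receptor, read 3.03 and 2.96 in Yy1_KO and 5.44 and 6.22 in WT, at least 3.56-fold lower (limma adjusted p = 0.00185), where only a fall could be tested. Rxra, the common dimer partner of many nuclear receptors, fell by 0.79 (SE 0.11, limma adjusted p = 0.00508). Nr2f2 and Nr2f6, receptors that bind similar elements, had changes of -0.31 and 0.27 with adjusted p of 0.0793 and 0.126 in limma. Nr2f1, Nr0b2 and Ppargc1a were too dim to be tested.

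Isx had 1 probe set (1431922_at), with 6.25 and 6.66 in Yy1_KO and 7.76 and 7.89 in WT. All 4 arrays were well above the filter and the groups did not overlap. The change was -1.37 (SE 0.17, limma adjusted p = 0.00366), to 38.6% of the WT level, and the call was lost without WT replicate 2 (adjusted p = 0.0643). Of the pair of genes that ISX is known to repress, the scavenger receptor gene Scarb1 read 6.05 and 5.69 in Yy1_KO and 6.14 and 6.20 in WT, a change of -0.30 (SE 0.15, limma adjusted p = 0.169) that did not pass. The carotenoid cleavage gene Bco1 was at the floor of all 4 arrays.

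The 3 GATA genes fell by smaller amounts than Cdx1 and Hnf4g. Gata5 read 4.37 and 4.61 in Yy1_KO and 5.82 and 5.71 in WT on 1450126_at, its brighter probe set. These are modest signals, with the Yy1_KO arrays just over the filter, and the change was -1.27 (SE 0.13, limma adjusted p = 0.00224). Its dimmer probe set (1450125_at) read 2.72 and 3.01 in Yy1_KO and 4.06 and 3.85 in WT and was not tested here, since 1 array alone reached the filter.

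Gata4, the factor of proximal small intestine, read 6.94 and 6.74 in Yy1_KO and 7.49 and 7.47 in WT on 1418863_at. The second probe set (1418864_at) read 6.17 and 6.17 in Yy1_KO and 6.75 and 6.81 in WT. Both were bright in all samples and nearly alike in size, with changes of -0.64 (SE 0.12, limma adjusted p = 0.0116) and -0.61 (SE 0.10, limma adjusted p = 0.00877). The call on 1418863_at was lost without WT replicate 1, WT replicate 2 or Yy1_KO replicate 2 (adjusted p = 0.0809, 0.0886 and 0.0678), and that on 1418864_at without any 1 of the 4 arrays.

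Gata6, the relative expressed along the whole intestine, read 7.29 and 7.61 in Yy1_KO and 8.06 and 8.14 in WT on 1425463_at, a change of -0.65 (SE 0.14, limma adjusted p = 0.0199). Probe set 1425464_at read 5.88 and 6.01 in Yy1_KO and 6.90 and 7.08 in WT, a change of -1.04 (SE 0.12, limma adjusted p = 0.00323). The third (1443081_at) was under the filter on all arrays, with 3.21 and 3.21 in Yy1_KO and 3.70 and 3.51 in WT. The call on 1425463_at was lost without WT replicate 1 (adjusted p = 0.1004), WT replicate 2 (adjusted p = 0.138) or Yy1_KO replicate 1 (adjusted p = 0.0736), and that on 1425464_at without WT replicate 2. The changes of Gata4 and of the brightest Gata6 probe set lay inside the range of the general epithelium genes (-0.89 to 0.92), as did Hnf4a on 1450447_at, and on the brightest probe sets those of the other 6 factors lay below it.

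Among the GATA genes, the result depended on which probe sets were compared. Gata4 minus Gata6 was -0.35 and -0.87 in Yy1_KO against -0.56 and -0.67 in WT, and the groups overlapped (difference between the changes 0.01, exact permutation p = 1). Over all 4 probe set pairs that difference ran from 0.01 to 0.43, and with the mean of each gene's tested probe sets it was 0.22 (exact permutation p = 0.333). Gata5 minus Gata6 was -2.92 and -3.00 in Yy1_KO against -2.24 and -2.43 in WT, and Gata5 minus Gata4 was -2.57 and -2.13 against -1.68 and -1.76. The change of Gata5 was lower than that of either relative by a difference of -0.63 on the brightest probe sets, or -0.23 with the second Gata6 probe set. The exact permutation p was 0.333 and the differences were -0.27 and -0.29 with the linear offset. No exact test of the 5 family comparisons could pass 0.05, and their p-values were not adjusted for that reason.

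**Figure D3:**
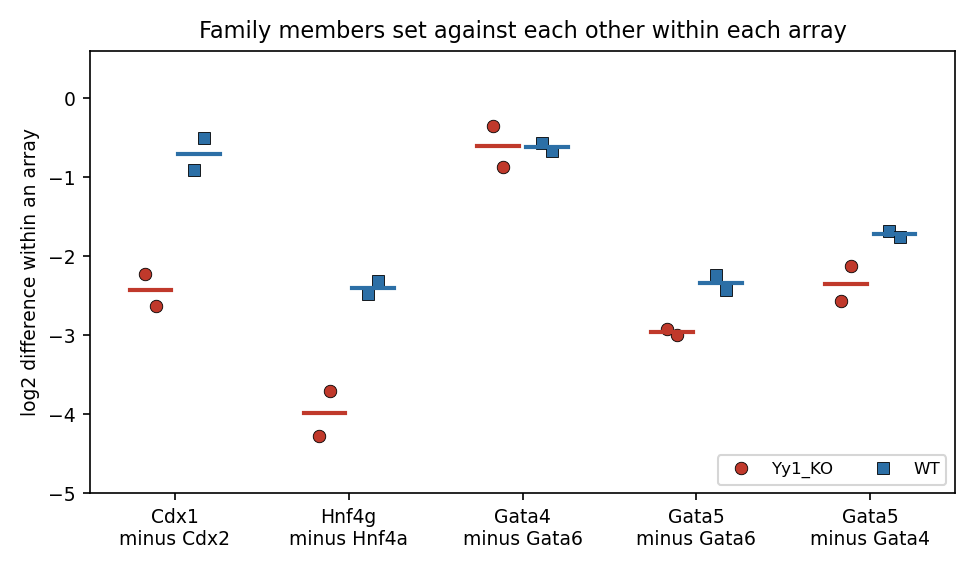
Log2 difference between 2 relatives within each array (vertical axis) for 5 pairs, Yy1_KO arrays as circles and WT arrays as squares, bars at group means. The groups are separate for all pairs other than Gata4 minus Gata6, and Cdx1 minus Cdx2 and Hnf4g minus Hnf4a show the widest gaps.

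Of the other GATA genes, Gata1 and Gata3 were at the floor of all arrays and Gata2 was at most 2.70. The GATA cofactor gene Zfpm1 read 5.68 and 5.73 in Yy1_KO and 6.14 and 6.18 in WT, a change of -0.46 (SE 0.10, limma adjusted p = 0.0209), while its relative Zfpm2 was at the floor.

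Genes that the HNF4 factors are known to activate, most of them for absorbing and packing lipid, were lower as well. All 12 tested of 15 listed were lower, with a median log2 change of -3.78, where 21.7% of all tested genes were lower, 17.9% higher and 39.6% either. In 5 of the 12 only a fall could be tested, and with these set at the filter the median was -3.17. The count of lower genes in this list was smaller with any 1 array left out. The fatty acid binding protein gene Fabp1 read 5.91 and 5.92 in Yy1_KO and 11.09 and 11.62 in WT, a 43.4-fold fall (log2 change -5.44, SE 0.19, limma adjusted p = 0.000560). Apolipoprotein gene Apoa1 read 6.35 and 6.27 in Yy1_KO and 11.34 and 11.54 in WT, a 35.0-fold fall (limma adjusted p = 0.000475). Its neighbours in chylomicron assembly, Apoa4 and Apoc3, were at least 21.9-fold and 14.5-fold lower, with both Yy1_KO arrays under the filter (limma adjusted p = 0.00163 and 0.00131). The smaller falls of the list were those of mitochondrial and activating enzymes of fatty acids, Cpt1a (-1.06), Acsl5 (-0.98) and Acaa2 (-0.86). This list was drawn up with earlier results of these arrays known and is not independent evidence of its direction.

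Genes linked to CDX factors mostly fell, with 6 of 7 tested lower, 1 higher and a median of -1.25. Of all tested genes, 21.7% were lower and 17.9% higher. The 6 include Isx, itself among the factors reported above, and this list too was drawn up with earlier results of these arrays known. The peptidase gene Mep1a (at least 4.32-fold lower, where only a fall could be tested), the guanylate cyclase gene Gucy2c (-1.66, SE 0.16), the cadherin gene Cdh17 (-1.25, SE 0.14), the ferroxidase gene Heph (-1.21, SE 0.21) and the villin gene Vil1 (-1.13, SE 0.14) fell, as did Isx, with limma adjusted p between 0.00109 and 0.00995. Muc2, the mucin of goblet cells, read 6.68 and 6.88 in Yy1_KO and 3.54 and 4.28 in WT and rose 7.32-fold (limma adjusted p = 0.00167). The count of lower genes was 2 of 7 without WT replicate 2. Lct, which encodes lactase, was bright on 1 WT array only (5.64) and was not tested, and Car1 was at the floor.

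Targets of GATA4 could be read only in part. Fabp2, which GATA4 is known to activate, read 6.93 and 7.20 in Yy1_KO and 10.97 and 11.21 in WT, a change of -4.02 (SE 0.15, limma adjusted p = 0.000672), and it is an HNF4-linked gene as well. Of the ileal bile acid genes that GATA4 is known to repress, Fabp6 read 4.24 and 3.45 in Yy1_KO and 2.97 and 3.46 in WT, overlapping and untested, and Slc10a2 stayed at or under 2.46 on all arrays.

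Of 14 tested transcription factors of gut endoderm other than the 8, 4 fell, 3 rose and 7 did not pass, with a median of 0.06. These shares are near those of all tested genes, of which 21.7% were lower, 17.9% higher and 39.6% either. Prdm1, which in mouse holds back the adult enterocyte programme before weaning, read 4.81 and 4.81 in Yy1_KO and 7.21 and 7.26 in WT, a fall of 2.42 (SE 0.10, limma adjusted p = 0.000686). Also lower were Maf (-1.63, SE 0.25), the epithelial ETS factor Elf3 (-0.89, SE 0.12) and the Krüppel-like factor Klf5 (-0.59, SE 0.14), with limma adjusted p of 0.00686, 0.00468 and 0.0256. Those that rose were Ehf, an ETS relative of Elf3 (2.23, SE 0.17), Foxa2 (at least 1.29-fold, only a rise could be tested) and Prox1 (1.26, SE 0.21), with limma adjusted p of 0.00130, 0.00191 and 0.00862. Foxa1, a forkhead factor that opens chromatin in endoderm, read 6.87 and 7.19 in Yy1_KO and 6.996 and 7.021 in WT (change 0.02, SE 0.14, limma adjusted p = 0.921). Sox9, a progenitor factor, had a change of 0.18 (SE 0.10, limma adjusted p = 0.224). The count of lower factors was 2 of 14 without WT replicate 2, without Yy1_KO replicate 1 or without Yy1_KO replicate 2.

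**Figure D4:**
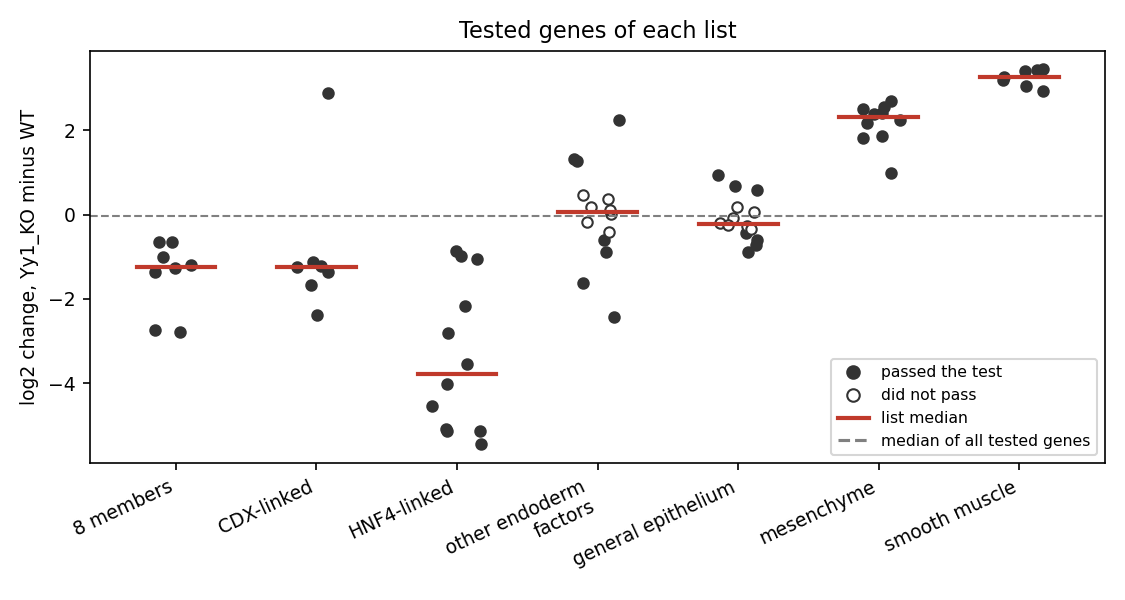
Log2 change, Yy1_KO minus WT (vertical axis), of the tested genes of 7 lists, filled where the adjusted p was under 0.05. Red bars are list medians and the dashed line is the median of all tested genes (-0.03), with the 8 members at -1.23, HNF4-linked genes at -3.78, other endoderm factors at 0.06 and mesenchyme at 2.32, measured values under the filter included.

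Genes of the stomach were followed because loss of Cdx2 is known to let gastric genes appear in the intestine. The foregut factor Sox2 and the gastric genes Muc5ac, Gkn2, Atp4b, Cblif and Anxa10 were at the floor of all arrays. The 2 tested of 14 listed both rose, where 17.9% of all tested genes were higher. For both only a rise could be tested, so the count cannot show a direction. Gkn1 read 4.85 and 5.38 in Yy1_KO and 2.41 and 2.41 in WT, and the tight junction gene Cldn18 read 6.03 and 5.90 in Yy1_KO and 3.55 and 3.60 in WT (at least 2.17-fold and 3.90-fold higher, limma adjusted p = 0.00107 and 0.000686). The dissection reached into the stomach per the labels, and the share of stomach cells in each sample was not tested.

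The genes with the pattern most like each factor were found by the smallest root mean square difference over the 4 arrays, after centring each gene on its own mean. With 4 arrays in 2 groups the measure follows the size of the fall and the order of the replicates. Nearest to Cdx1 were the phospholipid enzyme gene Chpt1 (0.044 log2 units), the bile acid receptor gene Nr1h4 (0.062) and the epoxide hydrolase gene Ephx2 (0.085). Nearest to Hnf4g were the folate receptor gene Folr1 (0.047), the maltase gene Mgam (0.092) and Clic5 (0.095). Nearest to Cdx2 were B4galnt1, the brush border myosin gene Myo7b and Dpp7 (0.023 to 0.041), and nearest to Hnf4a were Prxl2b, C1qtnf12 and Spsb4 (0.018 to 0.027). Isx was closest to Atp8a1, Septin9 and Mapk13 (0.020 to 0.056), and Gata5 to Hopx, Dhx32 and Cdkn1c (0.058 to 0.064).

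The authors' deposited table of their own limma comparison lists 13 of the 18 probe sets, all lower, and 7 of the 8 genes. Of all 2156 rows of that table, 1146 were lower. In the authors' deposited table the adjusted p of the 13 ran from 0.000123 for Hnf4g (1422182_at) to 0.00888 for Cdx2 (1422074_at). The table holds only log2 changes past 1 in size, with limma adjusted p of up to 0.3349, so a listing alone is not a pass at 0.05. That table was made from the same arrays and is not independent evidence of direction. Gata4 is not in it. The authors' deposited table has Gata5 on both probe sets, at -1.27 and -1.09, the second with adjusted p = 0.00276.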

How the data were processed

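Total RNA of 4 samples was hybridised to 1 Affymetrix Mouse430_2 array each, per the labels. The deposited value table holds log2 intensities made by the authors with GCRMA, per the submitters' processing notes, with version and settings not given in the sources used here. The authors' deposited table holds log2 changes, p-values and 2 kinds of score (moderated t and log odds) from limma, per the file headers. Its name puts WT first, yet its log2 changes run as Yy1_KO minus WT, with gaps of up to 0.00748 to those computed here. No score was used.

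The 64 control probe sets were left out. Of the other 45037, 34945 had 1 symbol in the platform annotation, 932 several and 9160 none listed. Probe sets with a log2 value of at least 4 on at least 2 of 4 arrays were tested (16887, or 37.5%). R 4.3.3 and limma 3.58.1 (lmFit, then eBayes) gave the contrast, with no covariate, and p-values were adjusted by Benjamini-Hochberg over all tested probe sets. The code was tested on simulated data. A gene stands for its tested probe set of highest mean, and a list is described by counts and medians. At the floor means within 0.1 of the lowest value, 2.358, on all arrays.

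The members, lists, motifs and tests were chosen with earlier results of these data known. Named were all members, up to 4 genes a list (2 for markers of other cell types) by size of change among those past the threshold without overlap, and the 3 nearest patterns of each member that changed 2-fold or more. Other genes named within a list stand as values and were picked after these were seen. Listed genes that no single-symbol probe set reads were not analysed here. The study's replicates are pools of embryos. The replicate numbers in the titles do not pair the samples per the labels, and same-numbered arrays had a correlation of deviations of -0.31 across probe sets.

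Alternatives were the filter, an offset, other scalings, other eBayes options, leaving out each array, the replicate number as a block and the choice of probe set. A crossed block and the alternatives for counts of other lists were chosen after seeing the data. Background correction was not repeated, as it needs probe-level files not used here.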

Additional observations from a re-analysis of the deposited data

How the results depend on the processing

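All 103 values of the 8 genes' changes under other settings were negative, and 86 of them kept their side of the threshold. For most settings the sign was fixed in advance. The filters, the eBayes options and the replicate blocks leave a log2 change as it was. Since the groups did not overlap, leaving out an array, an offset or a mean over probe sets could not turn the sign. Only quantile normalization and median centring could. With no filter on low values, none of the 8 brightest probe sets passed, with limma adjusted p of 0.0952 for Cdx1 (-2.74), 0.255 for Cdx2 (-1.01), 0.0764 for Hnf4a (-1.20), 0.122 for Hnf4g (-2.78), 0.143 for Isx (-1.37), 0.141 for Gata4 (-0.64), 0.105 for Gata5 (-1.27) and 0.226 for Gata6 (-0.65), while all 18 member probe sets had an unadjusted p under 0.05. In that fit the prior SD was 0.00224, against 0.125 with the filter, and 67 probe sets were higher, 81 lower and 1 member probe set lower. The lower counts were then 0 of 7 CDX-linked (6 at an unadjusted p under 0.05), 1 of 12 HNF4-linked and 1 of 14 other endoderm genes, with 0 of those 14 higher (4 unadjusted). A filter at log2 of 6 left 8302 probe sets, 1521 higher and 2246 lower, and gave no value for Gata5, which it removed.

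Leaving out 1 array gave 609 to 1532 higher and 754 to 1605 lower probe sets, 9 to 14 of the 16 member probe sets, changes of -1.29 to -0.72 for Cdx2, -1.58 to -1.16 for Isx, -0.74 to -0.54 for Gata4 and -0.81 to -0.49 for Gata6, 2 to 6 lower CDX-linked genes and 2 to 3 lower endoderm factors. The lone array of a genotype is then assumed to vary like the others. Gata4 minus Gata6 ran from -0.25 to 0.27 and turned negative without WT replicate 2 and without Yy1_KO replicate 1. The cause was not tested. With the replicate number as a block, 2380 probe sets were higher and 2828 lower, all 16 member probe sets passed (Gata6 at adjusted p = 0.0254), and no call on a factor changed. A crossed block gave 3005 higher, 3518 lower and 16 member probe sets. Quantile normalization gave 3447 higher and 3331 lower, and median centring 3488 and 3473.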

Other observations

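The replicates of the Yy1_KO group were further apart than those of the WT group for 7 of the 8 factors, with a mean SD of 0.24 in Yy1_KO and 0.10 in WT (n = 2 each, log2 scale). Yy1_KO replicate 2 was the higher of the pair for 7 of the 8, and Gata4 was the exception. In WT, replicate 2 was likewise the higher for 6 of the 8. None of these counts was set against the same share over all probe sets, and the 8 factors share the same arrays. Across all tested probe sets the replicates correlated alike, with r = 0.989 in Yy1_KO and 0.990 in WT. On the same arrays Yy1 itself (1422569_at) was lower in Yy1_KO replicate 2, at 6.81, than in Yy1_KO replicate 1, at 7.27. These values were picked out after they were seen and were not tested.

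The array carries separate probe sets for the antisense transcripts Hnf4aos and Gata5os. Hnf4aos read 2.40 on all 4 arrays, and Gata5os read 2.37 and 2.39 in Yy1_KO and 2.56 and 2.39 in WT, so that neither was above the intensity filter in any sample.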
